A study of Danio rerio with 85 samples.

Results

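The hearts described here came from zebrafish embryos that lack functional *rnf2*, which encodes the catalytic subunit of Polycomb repressive complex 1, and were collected at 2 and 1 days post fertilization (dpf). All deposited mutant hearts of these ages were taken: 9 at 2 dpf and 8 at 1 dpf, 17 of the 58 hearts in the series, which has 85 samples in all. The mutants (*myl7:GFP_rnf2*-/-) were zygotic homozygotes from an incross of heterozygous carriers of the ibl31 allele, a small deletion that leads to a premature stop codon, so that maternal *rnf2* product may have been present early. The hearts set beside them were from wildtype siblings (*myl7:GFP_rnf2*+/+), 13 at 2 dpf and 9 at 1 dpf. All 4 groups carried the *Tg(myl7::GFP)* transgene, in which the cardiomyocyte promoter of *myl7* drives GFP, on a mixed TU/TLF background. Each sample was 1 heart dissected by hand, and the rest of the embryo was genotyped. Transcripts were counted by unique molecular identifiers (UMIs), random barcodes that mark each captured mRNA molecule.

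In these days of development the linear heart tube of zebrafish bends and balloons into an atrium and a ventricle separated by an atrioventricular canal, while beating continues throughout. Cardiomyocytes switch on natriuretic peptide genes in the ballooning chambers, add and exchange sarcomere proteins, and expand their mitochondrial and glycolytic enzymes. The myocardium of the early tube is lined by endocardium, and a hyaluronan-rich cardiac jelly lies between them. Polycomb repressive complex 1 ubiquitinates histone H2A and keeps developmental regulators silent in cells where they are not used. The question asked of the mutant hearts was which of the changes between these ages still take place without Rnf2.

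The ages were deposited as separate tables, each normalized on its own. The UMIs were recovered from the deposited values and each heart was rescaled to a total of 10000 UMIs over the 6573 genes that both tables hold, so every level below is in UMIs per 10000. Depth moved with age. Over the shared genes the 2 dpf mutant hearts had a lowest, median and highest total of 43385, 70261 and 99296 UMIs, against 2370, 11026 and 83054 UMIs in the 1 dpf mutant hearts (two-sided exact permutation test on log2 totals, p = 0.00049, 9 against 8 hearts). Hearts of 1 age also shared a table, so age and anything done to a whole table cannot be told apart within a genotype. The barcode has 4 bases, which caps the UMIs that a gene can have in a heart, and the most abundant transcripts were near this limit in the deeper hearts. All 8 cardiomyocyte markers were measured, and their summed level ran from 148 to 327 in the 2 dpf and from 101 to 395 in the 1 dpf mutant hearts. The 1 dpf mutant hearts 2 and 3 stood apart: their thick filament genes summed to 90.4 and 51.8, against 198 to 278 in the other 6. Heart 2 was also the deepest of its group and had *myl7* at 243 UMIs, close to the limit. Calls of named genes that change without these hearts are given both ways.

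*rnf2* mRNA itself was scarce in the mutants. The lowest, median and highest levels were 0, 0.238 and 0.748 in 2 dpf mutant hearts and 0, 0 and 0.455 in 1 dpf mutant hearts, on 19 and 3 UMIs in all. The ratio of levels from UMIs pooled over the hearts of an age, 2 over 1 dpf, was 1.68 (95% exact interval 0.49 to 8.84, which covers counting error only). Wildtype hearts had 0.618, 1.22 and 2.23 at 2 dpf and 0, 1.17 and 2.52 at 1 dpf. Mutant medians lay below the wildtype medians at both ages, a difference that rests on few UMIs and was not tested here.

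Between 1 and 2 dpf the mutant hearts changed widely and mostly upward. In limma's moderated test on log2(level + 1), with a Benjamini-Hochberg adjusted p under 0.01 over all 6573 genes, 306 genes (4.66% of those tested) were higher at 2 dpf and 49 (0.745%) were lower. In the same test wildtype hearts gave 442 higher and 149 lower genes (6.72% and 2.27%, together 8.99%). Of the 306 genes that rose in mutant hearts, 168 (54.9%) also rose in wildtype hearts, which is 38% of the wildtype's 442. Of the 49 that fell, 37 (75.5%, or 24.8% of the wildtype's 149) fell in wildtype hearts too, and no gene was called in opposite directions. Every 2 dpf mutant heart was above every 1 dpf mutant heart for 119 genes (1.81%) and below for 21 (0.319%). The sign was shared by 296 of the 306 and by all 49, while 58.4% of all genes had a positive change in wildtype hearts. The median log2 fold change of the risers was 1.28 in mutant and 0.92 in wildtype hearts, and that of the fallers was -1.37 in mutant and -1.22 in wildtype hearts. These genes were picked by their change in mutant hearts, which favours a larger mutant value, so the gaps do not show a stronger change in mutants. Over all genes the median difference between the changes was 0.04. Across all genes the changes of both genotypes had a Pearson correlation of 0.70 and a Spearman rank correlation of 0.59, a description only, since the genotypes share tables and the depth gap, and genes are not independent replicates. In a whole heart, fewer cells of a type and less RNA per cell cannot be told apart.

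The split into risers and fallers depended on the scaling. With TMM factors 1051 genes rose and 35 fell, with the deposited size factors 3941 and 7, with DESeq2 260 and 122, and in hearts of at least 10000 UMIs (9 at 2 dpf, 4 at 1 dpf) 327 and 173. The 4 younger mutant hearts of that subset were hearts 2, 4, 6 and 7, so it kept heart 2. The median change of all genes was 0.12 on the scale used here, and TMM raised it by 0.16 and the deposited factors by 1.04. Without hearts 2 and 3, 489 genes rose and 80 fell, among them 284 of the 306 and 45 of the 49. Thinned to 2370 UMIs a heart, the depth of the smallest, 10 risers and 5 fallers were still called. Calls were more common among well counted genes. Of 2046 genes averaging 1 or more UMIs per 10000 in mutant hearts, tested alone, 307 rose and 66 fell. These held 231 of the 306 risers and 47 of the 49 fallers. The shares of all genes set beside gene lists below are not matched for abundance.

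**Figure D1:**
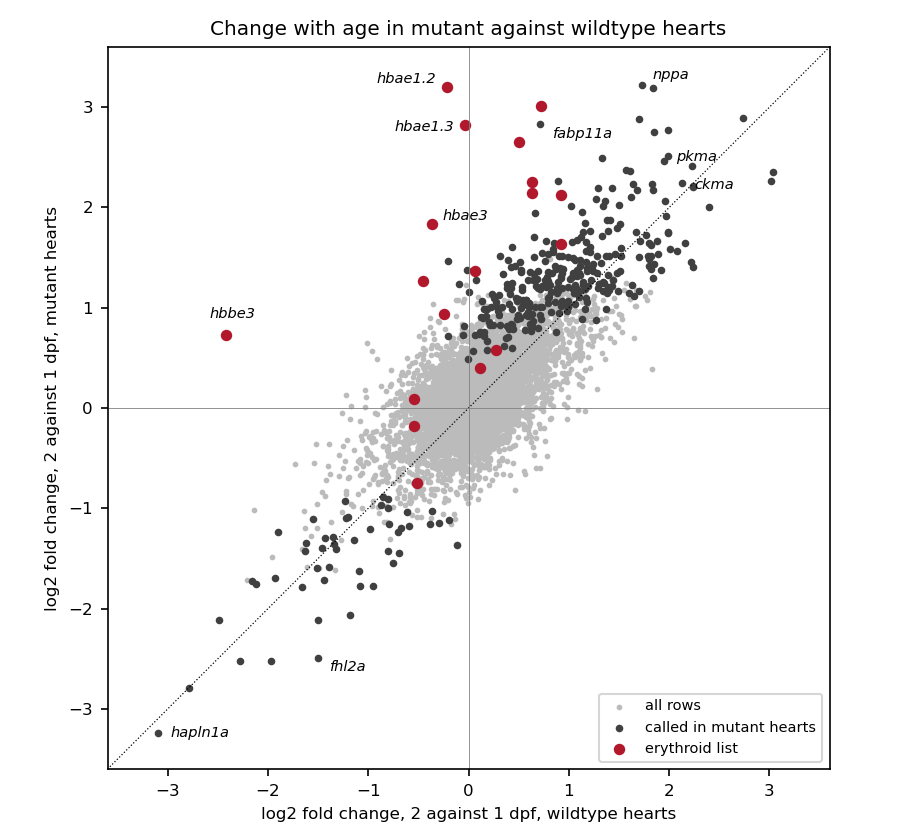
Log2 fold change between 2 and 1 dpf in mutant hearts (vertical axis) against wildtype hearts (horizontal axis), 1 point per gene, with the 355 genes called in mutant hearts in dark grey, the erythroid list in red and equal change as a dotted line. Called genes lie mostly near the dotted line, whereas most erythroid genes lie above it.

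On the log2(level + 1) scale the largest increase in the mutant hearts was that of *nppa*, the gene of atrial natriuretic peptide and a marker of chamber myocardium. It stood at 21.8, 33.9 and 51.2 UMIs per 10000 (lowest, median, highest) in 2 dpf mutant hearts, against 0.606, 1.82 and 8.72 in 1 dpf mutant hearts. No heart of one age reached the range of the other, and the log2 fold change was 3.22 ± 0.31 (SE; limma adjusted p = 2.1e-08). *nppb*, which encodes the related B-type peptide, had 4.65, 8.79 and 12 at 2 dpf and 0, 0 and 2.66 at 1 dpf, with UMIs in only 3 of the 8 younger hearts (2.88 ± 0.29, adjusted p = 2.4e-08). The order depended on the pseudocount: in edgeR the changes of several named genes exceeded that of *nppa* (4.20). Among them were *nppb* (4.98) and *tnnc1b*, described below (6.33). Both peptides rose in wildtype hearts as well, by 1.73 ± 0.21 and 1.70 ± 0.25. For *nppa* the wildtype hearts started higher, with medians of 43.7 at 2 dpf and 12.2 at 1 dpf. The change of *nppa* in mutants exceeded that in wildtype by 1.49, which missed the threshold (limma adjusted p = 0.11). It passed with edgeR (0.0095), DESeq2 (0.0018) and in hearts of at least 10000 UMIs (0.0044). For this difference DESeq2 adjusted over 457 genes only, where limma and edgeR adjusted over 6573. *smyd1b*, a methyltransferase and myosin chaperone of muscle, went the other way: it had 0.187, 0.413 and 1.61 in 2 dpf mutant hearts and 1.33, 4.86 and 7.27 in 1 dpf mutant hearts (-1.70 ± 0.28, adjusted p = 9.2e-05), and it fell by 1.93 in wildtype hearts. *bves*, a Popeye domain membrane protein gene, did not pass the test (medians of 6.49 at 2 dpf and 6.95 at 1 dpf).

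**Figure D2:**
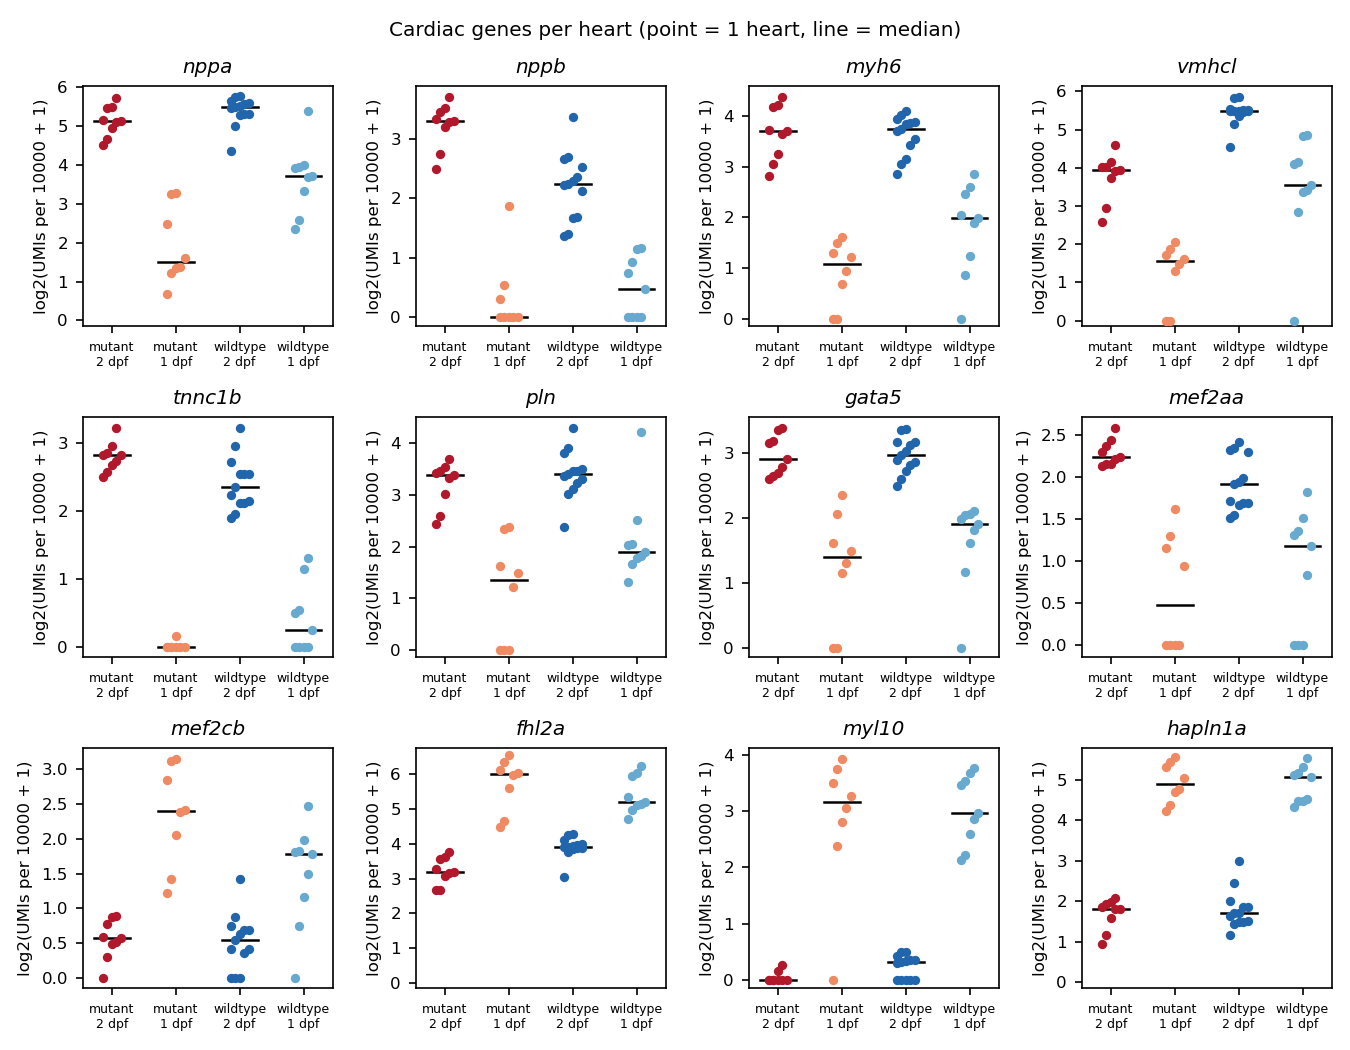
Level of 12 cardiac genes in each heart as log2(UMIs per 10000 + 1), with 1 point per heart and a line at the group median, for mutant hearts at 2 and 1 dpf and wildtype hearts at 2 and 1 dpf. Mutant hearts at 2 dpf lie above all 1 dpf mutant hearts for *nppa*, *nppb*, *myh6*, *vmhcl*, *tnnc1b*, *pln*, *gata5* and *mef2aa*, and below all of them for *mef2cb*, *fhl2a* and *hapln1a*.

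Sarcomere genes changed in both directions, where 4.66% of all genes rose and 0.745% fell. Of 35 measured genes of the thick filament, thin filament and Z disc, 10 rose and 6 fell in mutant hearts, and 15 of these 16 were called the same way in wildtype hearts. Among 13 thick filament genes, 3 rose and 2 fell, with a median log2 fold change of 0.45 against 0.12 over all genes. *myh6*, the atrial myosin heavy chain of zebrafish, had 5.98, 12 and 19.7 in 2 dpf mutant hearts and 0, 1.12 and 2.07 in 1 dpf mutant hearts (2.75 ± 0.30, adjusted p = 1.2e-07). *vmhcl*, a ventricular myosin heavy chain, had 5.01, 14.5 and 23 at 2 dpf and 0, 1.94 and 3.14 at 1 dpf (2.51 ± 0.33, adjusted p = 2.4e-06). The ages did not overlap for either myosin. The wildtype medians of *vmhcl* were higher at both ages, 43.9 at 2 dpf and 10.7 at 1 dpf, but its increase there, 1.98 ± 0.27, did not differ detectably from that in mutants (difference 0.53, adjusted p = 0.82). A further myosin heavy chain, *myh7ba*, rose by 1.2 ± 0.23 (1.08 to 2.81 UMIs per 10000 at 2 dpf, 0 to 0.963 at 1 dpf).

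The light chains moved differently. *myl10*, a regulatory light chain gene, was nearly lost: 119 UMIs were found in 7 of the 8 mutant hearts at 1 dpf, and 3 UMIs in 2 of the 9 at 2 dpf. Its median was 0 at 2 dpf and 7.96 at 1 dpf, and the ratio of pooled levels, 1 over 2 dpf, was 150 (95% exact interval 50.1 to 737, counting error only). In wildtype hearts it fell by the same fitted amount (-2.79 in mutant and -2.78 in wildtype hearts). *myl7*, the regulatory light chain of cardiomyocytes whose promoter drives the GFP, had 19.1, 32.1 and 44 in 2 dpf mutant hearts and 29.3, 97.9 and 124 in 1 dpf mutant hearts (-1.31 ± 0.24, adjusted p = 0.00028). With UMIs corrected for barcode collisions the value was -1.18 (adjusted p = 0.0028). In edgeR's quasi-likelihood test it did not pass (-0.78, adjusted p = 0.045). *cmlc1*, an essential light chain gene, and *vmhc*, the main ventricular myosin heavy chain, did not pass, with medians of 34.4 and 32.8 for *cmlc1* and 13.3 and 20.1 for *vmhc* at 2 and 1 dpf. In hearts of at least 10000 UMIs *vmhc* passed, at -0.94 (adjusted p = 0.0053), and there its change in mutants was below that in wildtype by 1.55 (adjusted p = 0.0015), where all hearts gave -0.67 (adjusted p = 0.63).

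In the thin filament and Z disc, 7 of 22 genes rose and 4 fell, with a median of 0.10. The most sharply gained was *tnnc1b*, a troponin C gene, with 353 UMIs over all 9 hearts at 2 dpf and 1 UMI in 1 of 8 hearts at 1 dpf. Its levels were 4.63, 6.04 and 8.25 in 2 dpf mutant hearts and 0, 0 and 0.12 in 1 dpf mutant hearts (2.77 ± 0.23, adjusted p = 4.8e-10). The ratio of pooled levels, 2 over 1 dpf, was 93.4 (95% exact interval 16.7 to 3699, counting error only). Such ratios pool the UMIs of all hearts of an age, and heart 2 held 83054 of the 159209 UMIs at 1 dpf. Wildtype hearts gained *tnnc1b* too (1.99 ± 0.24). At 1 dpf 5 of the wildtype hearts held 6 UMIs of it in all, at most 2 in a heart. Titin, the molecular spring of the sarcomere, was counted as a gene pair. *ttn.1* had medians of 7.02 at 2 dpf and 0.758 at 1 dpf without overlap (2.24 ± 0.30), and *ttn.2* had 21.3 and 8.41 with overlap (1.75 ± 0.42, adjusted p = 0.0052). The call of *ttn.2* was lost without hearts 2 and 3 (1.40, adjusted p = 0.031). Genes of the Z disc and its links rose as well: *actn2b* (alpha-actinin) by 1.76 ± 0.39, *desma* (desmin) by 1.72 ± 0.35, *csrp3* (muscle LIM protein) by 2.07 ± 0.30 and *xirp2a* (a Xin actin-binding protein) by 0.86 ± 0.22. The last of these was close to the threshold (adjusted p = 0.0097) and did not pass in hearts of at least 10000 UMIs or without hearts 2 and 3.

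*fhl2a*, which encodes a four-and-a-half LIM domain protein of heart muscle, was the clearest loss. It had 5.34, 8.13 and 12.7 in 2 dpf mutant hearts, against 21.2, 63.1 and 92.8 in 1 dpf mutant hearts, with no overlap (-2.50 ± 0.26, adjusted p = 4.5e-08). The wildtype change was -1.50 ± 0.19, with medians of 14.0 at 2 dpf and 35.3 at 1 dpf, and the difference between the changes, -1.0, did not pass (adjusted p = 0.28). Without hearts 2 and 3 it passed, at -1.38 (adjusted p = 0.0059). *tpma*, a tropomyosin gene, fell by 1.58 on the log2 scale, to medians of 0.121 at 2 dpf, against 2.38 at 1 dpf. The cardiac actin genes *actc1a* and *actc1c* had medians of 35.4 and 35.7 at 2 dpf and 81.1 and 83.4 at 1 dpf, and fitted changes of -0.89 ± 0.21 and -0.90 ± 0.20. These genes came within a few UMIs of the barcode limit in the deepest hearts (up to 254 for *actc1c*), and their levels were so alike that reads may have been shared between them. With collisions corrected, the changes were -0.07 (adjusted p = 0.88) for *actc1a* and -0.14 (adjusted p = 0.73) for *actc1c*, so a fall of cardiac actin was not shown. *tnnt2a* and *tnni1b*, troponin T and troponin I genes of the embryonic heart, did not pass (medians of 29 and 40.1, and of 33.1 and 33.2, at 2 and 1 dpf).

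Against 5.4% of all genes called in either direction, limma called 1 of 17 measured genes of calcium handling and channels. This was *pln*, which encodes phospholamban, the inhibitor of the calcium pump of the sarcoplasmic reticulum. Its levels were 4.41, 9.53 and 12 in 2 dpf mutant hearts and 0, 1.57 and 4.22 in 1 dpf mutant hearts, without overlap (2.08 ± 0.34, adjusted p = 9.5e-05), and wildtype hearts gained 1.27 ± 0.26. The pump gene *atp2a2a* had medians of 14.7 at 2 dpf and 8.92 at 1 dpf in mutants and was not called (0.70 ± 0.40), whereas it was in wildtype hearts (0.77 ± 0.22, adjusted p = 0.0073). *kcnh6a*, a potassium channel of repolarization, rose in wildtype hearts (1.65 ± 0.24) and was not called in mutants, where its levels were 0.477, 1.31 and 3.26 at 2 dpf and 0, 0.181 and 2.91 at 1 dpf (0.70 ± 0.30, adjusted p = 0.13). The difference between the genotypes was not shown for *kcnh6a* (-0.96, adjusted p = 0.51). Over the list the median was 0.46, and 14 of 17 genes had a positive change.

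Of 21 cardiac transcription factors, 2 rose and 1 fell, and the ages did not overlap for these 3. Over all genes, 5.4% were called in either direction and the ages did not overlap for 2.13%. Without 1 dpf mutant heart 9, 4 rose, and without heart 3, 2 fell. *gata5*, a GATA factor of endocardium and myocardium, had 5.04, 6.44 and 9.41 in 2 dpf mutant hearts and 0, 1.63 and 4.09 in 1 dpf mutant hearts (1.72 ± 0.31, adjusted p = 0.00031). *mef2aa* and *mef2cb* both encode MADS box factors that act on muscle genes, and they moved in opposite directions. *mef2aa* had 3.37, 3.70 and 4.98 at 2 dpf and 0, 0.455 and 2.07 at 1 dpf (1.66 ± 0.28, adjusted p = 0.0001). *mef2cb* had 0, 0.482 and 0.854 at 2 dpf and 1.33, 4.29 and 7.88 at 1 dpf (-1.77 ± 0.28, adjusted p = 5.6e-05). The wildtype hearts showed the same exchange, 1.03 ± 0.24 for *mef2aa* and -0.95 ± 0.24 for *mef2cb*. *nkx2.5*, the early cardiac homeobox gene, fell in wildtype hearts (-1.23 ± 0.24) and was not called in mutants, where its medians were 1.71 at 2 dpf and 3.93 at 1 dpf (-0.86 ± 0.34, adjusted p = 0.093). It was called in mutants without hearts 2 and 3 (-1.17, adjusted p = 0.0053), with edgeR (adjusted p = 0.0067), with DESeq2 (adjusted p = 0.0008) and in hearts of at least 10000 UMIs (-1.51, adjusted p = 2.2e-05). *hand2*, a bHLH factor of cardiac precursors, and *tbx2b*, a T-box repressor of chamber genes in the atrioventricular canal, were not called by limma: *hand2* had medians of 6.34 and 5.77, and *tbx2b* 4.84 and 2.05, at 2 and 1 dpf. *tbx2b* rose in edgeR (1.63, adjusted p = 0.00071) and with TMM factors (1.34, adjusted p = 0.00075). Over the list edgeR called 5 higher and 2 lower, DESeq2 and the hearts of at least 10000 UMIs 4 and 2.

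On the log2(level + 1) scale the largest fall was that of *hapln1a*, whose link protein ties hyaluronan to proteoglycans in the cardiac jelly. It had 0.935, 2.54 and 3.24 in 2 dpf mutant hearts and 17.8, 29.1 and 46.1 in 1 dpf mutant hearts (-3.24 ± 0.26, adjusted p = 4.5e-10). In edgeR the falls of several sparser genes, among them *myl10* (-6.24) and *tpma* (-3.58), exceeded that of *hapln1a* (-3.09). Wildtype hearts had nearly the same levels, with medians of 2.26 at 2 dpf and 32.5 at 1 dpf (-3.10 ± 0.23). Of 13 genes of the atrioventricular canal and valves, limma called *hapln1a* and *vcanb*, a versican gene, as lower and none as higher, where edgeR called 4 lower and 2 higher and hearts of at least 10000 UMIs gave 4 lower and 1 higher. Limma called 5.4% of all genes in either direction. *vcanb* was sparse, with medians of 0 at 2 dpf and 1.63 at 1 dpf (-1.08 ± 0.28, adjusted p = 0.0083). The paralogs *hapln1b* and *vcana* fell in wildtype hearts and just missed the threshold in mutants (-1.58 ± 0.43, adjusted p = 0.013, and -1.71 ± 0.48, adjusted p = 0.015). Without hearts 2 and 3 both fell, by 2.10 (adjusted p = 0.00027) and by 2.34 (adjusted p = 0.00044) on the log2 scale, and both also passed in edgeR, in DESeq2 and in hearts of at least 10000 UMIs. Their medians in mutants were 1.99 and 9.51 for *hapln1b* and 1.45 and 10.0 for *vcana* at 2 and 1 dpf. *bmp4*, a ligand of the canal, had medians of 5.24 at 2 dpf and 5.01 at 1 dpf and was not called.

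Single connective and vascular genes rose, where 4.66% of all genes did. The endothelial list, with 1 riser of 23, was near that share, and the other lists here were small. *col1a1b* and *col1a2*, which encode chains of collagen I, rose by 2.18 ± 0.34 and 1.42 ± 0.29, the 2 genes that limma called of 19 matrix genes (edgeR called 5 higher). *col1a1b* had medians of 7.85 at 2 dpf and 0.783 at 1 dpf, and the ages did not overlap. *acta2*, the smooth muscle actin gene, which embryonic cardiomyocytes also use, was the 1 gene called of 5 in the outflow tract and smooth muscle list and had 5.84, 12.5 and 18.9 in 2 dpf mutant hearts and 0, 1.69 and 4.22 in 1 dpf mutant hearts (2.27 ± 0.30, adjusted p = 2.4e-06). In wildtype hearts it was not called (0.89 ± 0.27, adjusted p = 0.015, median 4.14 at 2 dpf), and the difference of 1.37 did not pass (adjusted p = 0.25). *aldh1a2*, the retinoic acid synthesis enzyme found in epicardium and endocardium, rose by 0.98 ± 0.20 on 4 UMIs at 1 dpf. It was 1 of 3 epicardial genes measured in both tables. Of 23 endothelial genes limma called *myct1a* alone (0.83 ± 0.19, with UMIs in 1 of 8 younger hearts), and it did not pass in edgeR (adjusted p = 0.028), in DESeq2 (0.12) or in hearts of at least 10000 UMIs (0.016). *cdh5*, the cadherin of endothelial junctions, had medians of 9.29 at 2 dpf and 4.28 at 1 dpf (1.49 ± 0.44, adjusted p = 0.024) and passed in edgeR (1.28, adjusted p = 0.0024). *kdrl*, a VEGF receptor gene, had 0.461 and 1.33 (-0.41 ± 0.29) and was lower in hearts of at least 10000 UMIs (-1.10, adjusted p = 0.00059).

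Many enzymes of energy metabolism rose in the mutants. Of 143 genes for glycolysis, fatty acid use, creatine and ATP transfer and the nuclear-encoded respiratory chain, 45 (31.5%) rose, none fell and the others did not pass, where 4.66% and 0.745% of all genes rose and fell. These shares of all genes are not matched for abundance, and the 143 were not tested against genes of like abundance. Risers were more common among well counted genes, as given above. The 45 became 29 with UMIs corrected for barcode collisions, 56 with edgeR, 44 with DESeq2 and 79 with TMM factors. With the deposited size factors 131 rose, and thinned to 2370 UMIs a heart 2 did. In hearts of at least 10000 UMIs 48 rose and 1 fell. The summed glycolytic level was 94.3, 136 and 187 UMIs per 10000 in 2 dpf mutant hearts and 29.2, 60.5 and 92.7 in 1 dpf mutant hearts. It was 88.2, 154 and 200 in 2 dpf and 40.2, 68.7 and 101 in 1 dpf wildtype hearts. The mutant ages did not overlap in this sum, nor in those of fatty acid use and of creatine and ATP transfer. They did overlap in the sum of the nuclear-encoded respiratory chain, the largest list, with a lowest value of 230 at 2 dpf and a highest of 253 at 1 dpf.

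**Figure D3:**
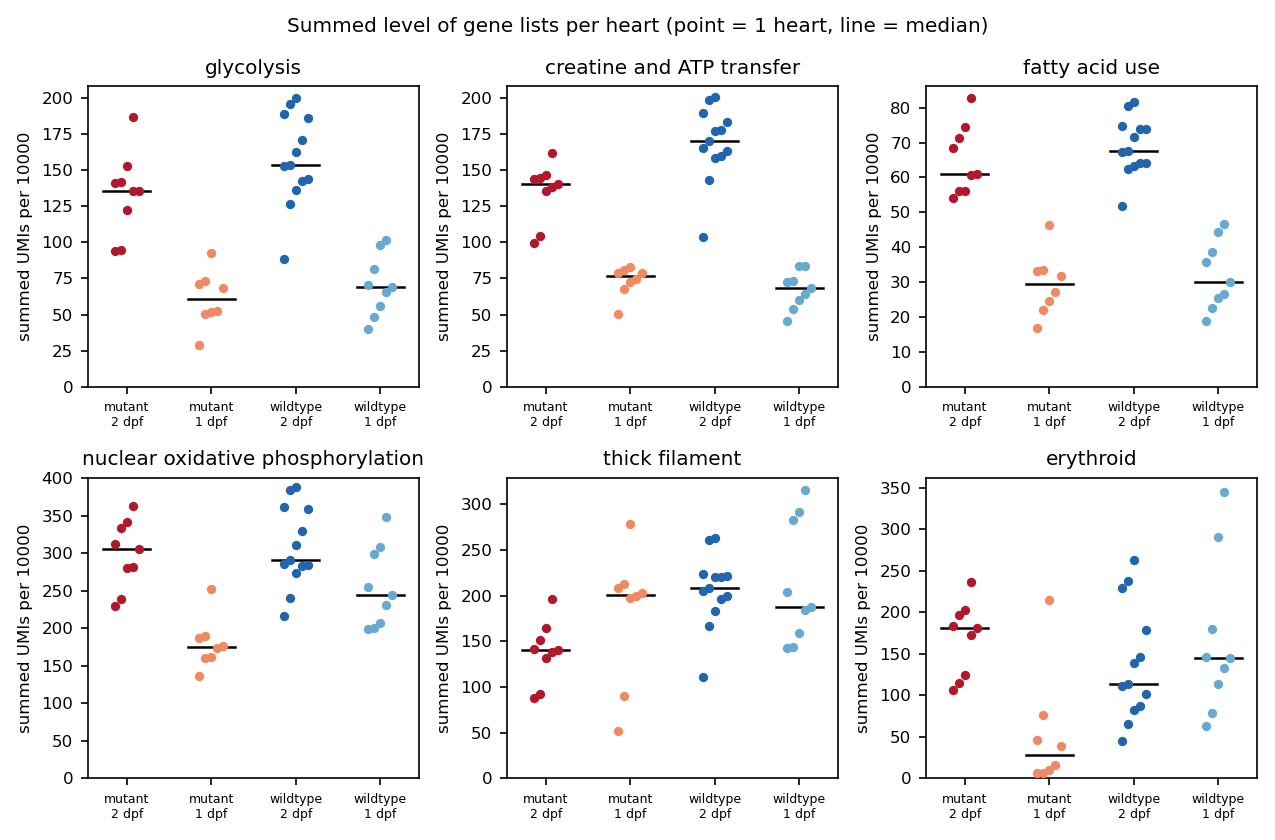
Summed level of 6 gene lists in each heart, in UMIs per 10000 from 0 upward, with 1 point per heart and a line at the group median, for mutant hearts at 2 and 1 dpf and wildtype hearts at 2 and 1 dpf. All 2 dpf mutant hearts lie above all 1 dpf mutant hearts for glycolysis, creatine and ATP transfer and fatty acid use. The nuclear oxidative phosphorylation, thick filament and erythroid sums overlap, with 1 dpf mutant heart 2 at the top of its group (215) in the erythroid panel.

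In glycolysis 10 of 20 genes rose, 9 of them in wildtype hearts too, and the median log2 fold change was 1.11. *pkma*, a muscle pyruvate kinase gene, had 303 UMIs at 2 dpf and 3 at 1 dpf. Its levels were 3.32, 4.97 and 8.07 in 2 dpf mutant hearts and 0, 0 and 0.606 in 1 dpf mutant hearts. The ratio of pooled levels, 2 over 1 dpf, was 26.7 (95% exact interval 9.06 to 130, counting error only). *gapdh* had 21.6, 30.7 and 42 at 2 dpf and 3.98, 9.54 and 15.7 at 1 dpf (1.76 ± 0.25, adjusted p = 7.9e-06). Neither overlapped between the ages. The enolase gene *eno1a* rose by 2.23 ± 0.30, the phosphoglycerate mutase gene *pgam1a* by 1.91 ± 0.33 and the glucose phosphate isomerase gene *gpia* by 1.75 ± 0.30. *ldha*, a lactate dehydrogenase gene, was not called and had medians of 7.12 at 2 dpf and 10.7 at 1 dpf.

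In creatine and ATP transfer, a list that also holds enzymes of the citric acid cycle, 8 of 22 genes rose (median 1.01), 7 of them in wildtype hearts too. The creatine kinases buffer ATP in contracting muscle. *ckma* had 16.5, 28 and 35.5 in 2 dpf mutant hearts and 1.33, 5.25 and 8.26 in 1 dpf mutant hearts (2.24 ± 0.27, adjusted p = 6.3e-07). *ckbb* had 4.11, 5.84 and 7.15 at 2 dpf and 0, 0.227 and 2.29 at 1 dpf (2.26 ± 0.28, adjusted p = 9.1e-07). Their wildtype changes were 2.12 ± 0.20 and 3.02 ± 0.24, and neither differed detectably from the mutant change (differences of 0.12 and -0.76, adjusted p = 0.95 and 0.62). The mitochondrial aspartate aminotransferase gene *got2b* rose by 1.52 ± 0.27. The 8 risers became 4 or 5 when any one of 2 dpf mutant hearts 26, 27, 28, 32, 34 and 35 was left out.

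Fatty acid use gave 6 risers of 21 genes (median 0.47), 5 of them shared with wildtype hearts. *fabp3*, the heart fatty acid binding protein gene, had medians of 17.3 at 2 dpf and 4.91 at 1 dpf, with heart 3 at 26.6 among the younger ones (1.64 ± 0.33, adjusted p = 0.001). The beta-oxidation genes *hadhb* and *acaa2* rose by 1.45 ± 0.29 and 1.47 ± 0.23. *fabp11a*, a fatty acid binding protein gene of adipocyte type, was the exception in that its wildtype change was not called. It had 7.40, 12.2 and 18.9 in 2 dpf mutant hearts and 0, 0.647 and 3.01 in 1 dpf mutant hearts (2.84 ± 0.30, adjusted p = 4.1e-08), against 1.41, 3.41 and 4.99 in 2 dpf and 0, 1.25 and 9.96 in 1 dpf wildtype hearts (0.71 ± 0.30, adjusted p = 0.097). All mutant hearts at 2 dpf were above all wildtype hearts of that age. The mutant change exceeded the wildtype change by 2.13, with an adjusted p of 0.023 that missed the threshold. With edgeR, with DESeq2 (adjusted p = 0.0005) and in hearts of at least 10000 UMIs (adjusted p = 0.0002) this difference passed, and without hearts 2 and 3 as well (2.18, adjusted p = 0.0086).

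Of 80 nuclear-encoded respiratory chain genes, 21 rose, 11 of them in wildtype hearts too, and none fell (median 0.59, against 0.20 in wildtype hearts, where 13 rose and 3 fell). Members of several complexes were among them: *ndufa10* of complex I (1.32 ± 0.26), *sdha* of complex II (1.67 ± 0.30), *uqcrfs1*, the Rieske protein of complex III (1.55 ± 0.33), and *atp5a1* of the ATP synthase (1.48 ± 0.25). *atp5a1* had 11.5, 17.7 and 23.3 in 2 dpf mutant hearts and 3.14, 4.62 and 9.51 in 1 dpf mutant hearts, without overlap. None of these differed detectably from the wildtype change. The 21 risers became 12 or 13 when any one of 2 dpf mutant hearts 27, 28, 29, 32, 34 and 35 was left out. Of the 13 genes encoded by the mitochondrial genome, 2 rose, *mt-nd5* (1.56 ± 0.31) and *mt-atp8* (0.84 ± 0.22, adjusted p = 0.0093), where 4.66% of all genes rose. Only 5 UMIs of *mt-atp8* were found at 1 dpf, and its call was lost without hearts 2 and 3 (adjusted p = 0.0102), in DESeq2 (0.048) and in hearts of at least 10000 UMIs (0.058). Without hearts 2 and 3, 1 of the 13 was higher and 2 were lower, and with collisions corrected 5 were higher. The median of the 13 was 0.04, below that of all genes, and 8 of the 13 came near the barcode limit.

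**Figure D4:**
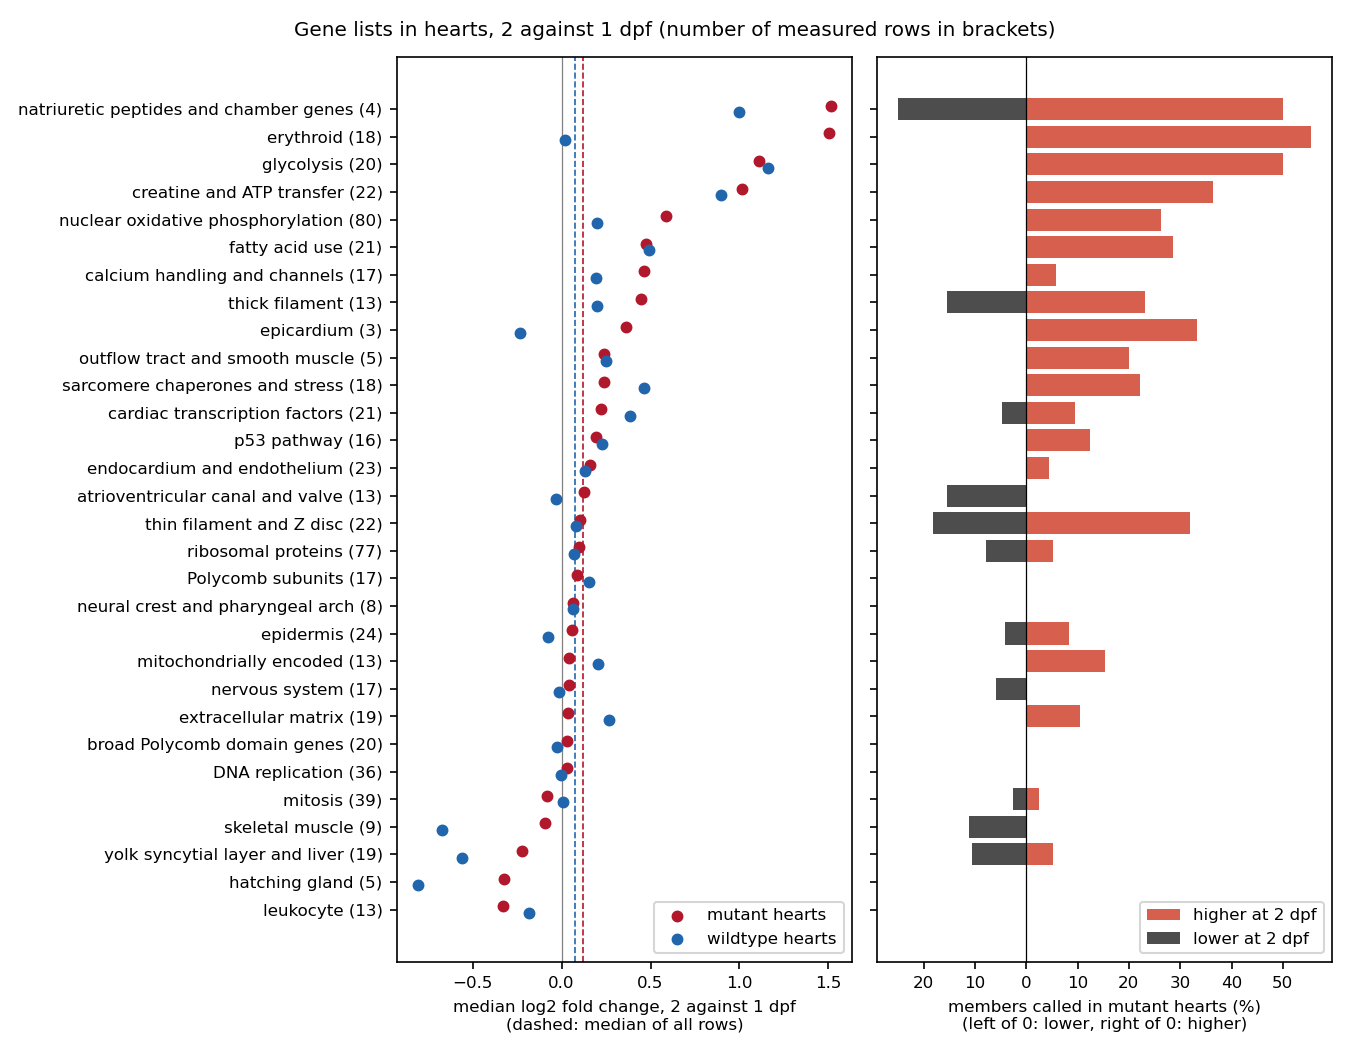
Median log2 fold change between 2 and 1 dpf of each gene list in mutant (red) and wildtype (blue) hearts at left, with dashed lines at the medians of all genes (0.12 and 0.07), and the percentage of each list called higher or lower in mutant hearts at right. The glycolysis, fatty acid, creatine and nuclear respiratory lists have calls in 1 direction, sarcomere lists have calls in both directions, and the erythroid list has a median of 1.5 in mutant and 0.02 in wildtype hearts.

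Calls of cell cycle genes did not stand out from those of all genes, of which 5.4% passed in either direction. None of 36 genes of DNA replication was called in mutant hearts, with a median of 0.03 (2 had an unadjusted p under 0.05). edgeR and DESeq2 each called 0 higher and 1 lower, and 1 was higher without hearts 2 and 3. In 1 dpf mutant hearts 2 and 3 the DNA replication genes summed to 55.4 and 102, against 8.72 to 33.8 in the other 6. The mitosis genes summed to 105 and 208 there, against 53.9 to 93.0. Such a spread among the younger hearts limits what these tests can detect. Of 39 mitosis genes 1 rose and 1 fell. The riser was *tuba8l4*, an alpha tubulin gene (1.31 ± 0.30, adjusted p = 0.0034). The faller was *hmgb2a*, which encodes a chromatin protein of dividing cells, with 4.27, 6.39 and 7.75 in 2 dpf mutant hearts and 11.9, 21.5 and 57.1 in 1 dpf mutant hearts (-1.78 ± 0.26, adjusted p = 1.5e-05). Of 77 ribosomal protein genes 4 were higher and 6 lower (median 0.10), a division that moved with the method: 9 were higher and 1 lower with edgeR, 19 and 1 with TMM factors, 11 and 11 with DESeq2 and 8 and 7 without hearts 2 and 3. As single hearts were left out, 3 to 7 were higher (7 without 1 dpf mutant heart 2 or 9) and 2 to 7 lower (2 without 2 dpf mutant heart 27). *rpl5b* and *rps2* rose by 1.77 ± 0.33 and 1.27 ± 0.25, while *rpl39* and *rpl36* fell by 1.72 and 1.43 on the log2 scale, and wildtype hearts had the same 4 changes. *rpl36* did not pass in edgeR (adjusted p = 0.013). The ages did not overlap for *rpl39*, which had medians of 6.05 at 2 dpf and 21.9 at 1 dpf. *id1*, an inhibitor of bHLH factors and a target of BMP signalling, behaved similarly, with 5.30, 7.35 and 9.17 at 2 dpf and 14.1, 27.2 and 34.9 at 1 dpf (-1.75 ± 0.22, adjusted p = 1.3e-06).

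Genes of the Polycomb system itself did not pass the test. None of 17 subunit genes was called by limma in either direction (median 0.09), in mutant or in wildtype hearts, and 5 had an unadjusted p under 0.05 in mutants. edgeR and DESeq2 also called 0. *bmi1a*, a partner of Rnf2 in the complex, had 1.08, 2.11 and 3.27 in 2 dpf and 0, 0.891 and 3.14 in 1 dpf mutant hearts, against medians of 0.338 at 2 dpf and 0.39 at 1 dpf in wildtype hearts. Its change with age was not called (0.74 ± 0.30, adjusted p = 0.099). Of the genes listed under broad Polycomb domains in whole embryos, 20 were in both tables and none was called by limma, edgeR or DESeq2 (median 0.03, 2 with an unadjusted p under 0.05). This list, too, is too small to tell 0 calls from the share of all genes. A further 30 of these names, and 16 of 17 *hox* genes looked for, stood only in the 2 dpf table, so their change with age was not analysed here. The *hox* gene measured at both ages, *hoxb3a*, was not called (0.17 ± 0.33). Over all 6573 genes, 1709 had an unadjusted p under 0.05.

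Chaperone and stress genes gave 4 risers of 18 and no faller, and 1 or 2 risers when any one of 2 dpf mutant hearts 26, 27, 32, 34 and 35 was left out. The shares of all genes to set beside this list and the next were 4.66% risers and 0.745% fallers. *hsp90ab1*, a cytosolic chaperone gene, had medians of 28.4 at 2 dpf and 17.7 at 1 dpf (0.99 ± 0.25, adjusted p = 0.009) and was lost without hearts 2 and 3 (adjusted p = 0.016). *hspb1*, a small heat shock protein gene, had 5.01, 8.98 and 11.1 at 2 dpf and 0, 3.59 and 4.85 at 1 dpf (1.47 ± 0.35, adjusted p = 0.0046), without overlap. It was not called in wildtype hearts (0.40 ± 0.25). *fhl1a*, a LIM protein gene of muscle, rose by 1.46 ± 0.30, and *hspa5*, a chaperone of the endoplasmic reticulum, by 1.37 ± 0.33. In a list of p53 and cell cycle arrest genes, *foxo3b*, a forkhead factor, and *cdkn1bb*, a p27 type inhibitor of cyclin-dependent kinases, rose (1.14 ± 0.27 and 1.01 ± 0.26) and the other 14 were not called. Both were lost in hearts of at least 10000 UMIs (*foxo3b* at 0.74, adjusted p = 0.047, *cdkn1bb* at 0.65, adjusted p = 0.08) and in DESeq2, and *cdkn1bb* also without hearts 2 and 3 (0.99, adjusted p = 0.014).

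Beyond the lists, the genes with the largest changes and no overlap between ages included several of uncertain role. *si:dkey-164f24.2* had 9.17, 10.2 and 15.1 in 2 dpf mutant hearts and 0, 0.181 and 2.91 in 1 dpf mutant hearts (2.90 ± 0.30, adjusted p = 4.1e-08), with a wildtype change of 2.74 ± 0.25. *zgc:158463* rose by 2.35 ± 0.31 and in wildtype hearts by 3.04 ± 0.26. *anxa2a*, a calcium-dependent membrane binding protein gene, had medians of 5.40 at 2 dpf and 0 at 1 dpf (2.49 ± 0.30), *gstm.1*, a glutathione transferase gene, 5.01 and 0 (2.37 ± 0.24), and *krt94*, a keratin gene, 10.4 and 1.42 (2.36 ± 0.30). All 5 rose in wildtype hearts. Among the fallers, *pls3* (plastin, an actin bundler) fell by 2.11, *stom* (stomatin, a membrane protein) by 1.72 and *gnb5b* (a G protein beta subunit) by 1.44 on the log2 scale. *tnnc2*, the troponin C of fast skeletal muscle, had 0, 0.604 and 1.81 at 2 dpf and 2.66, 9.86 and 16.9 at 1 dpf (-2.52 ± 0.30, adjusted p = 4.5e-07). Limma called none of the other 8 skeletal muscle markers measured. Over all 9, edgeR and DESeq2 each called 1 higher and 2 lower, and hearts of at least 10000 UMIs gave 2 lower.

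The difference between the genotypes was tested as the mutant change minus the wildtype change. A fold shift common to a table cancels in it for well counted genes, but not fully for sparse genes or near the barcode limit. Depth also differed within a table, with median totals of 70261 UMIs in mutant and 35856 in wildtype hearts at 2 dpf. Limma called 4 genes (0.0609%), all with a more positive change in mutants, and all 4 were globins. No gene was called with a lower change in mutants, although 513 had an unadjusted p under 0.05, 337 of them higher and 176 lower. edgeR called *fabp11a*, *hbbe3*, *apoa4b.1* and *nppa* as higher and 0 as lower, and DESeq2 *fabp11a* and *nppa* as higher and *actb2* as lower. DESeq2 gave an adjusted p to 457 genes only, so its adjusted p values of the difference are not on the same footing as the others. For the cardiac and metabolic genes described above limma detected no difference between the genotypes with all hearts, while it called *fabp11a*, *nppa* and *vmhc* in hearts of at least 10000 UMIs and *fabp11a* and *fhl2a* without hearts 2 and 3.

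Globins are the oxygen carriers of the primitive red blood cells, which start to circulate through the zebrafish heart at about the younger age. *hbae1.2*, an alpha globin gene (ENSDARG00000088330), had 15.1, 24.8 and 37.2 in 2 dpf mutant hearts and 0, 0.967 and 25.9 in 1 dpf mutant hearts (3.2 ± 0.45, adjusted p = 7.9e-06). Wildtype hearts had 7.92, 16.1 and 41.5 at 2 dpf and 7.48, 20.3 and 55.0 at 1 dpf (-0.21 ± 0.25). Most mutant hearts at 1 dpf were thus low, while those at 2 dpf lay within the wildtype range. The difference of the changes was 3.41 (adjusted p = 3.1e-05). *hbae1.3* (ENSDARG00000089124), a neighbour in the same family, had a difference of 2.85 (adjusted p = 0.00057), with medians of 27.2 and 2.84 in 2 and 1 dpf mutant hearts. *hbae3*, another alpha globin gene, differed by 2.20 (adjusted p = 0.007) and had medians of 28.8 at 2 dpf and 7.22 at 1 dpf in mutants.

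*hbbe3*, an embryonic beta globin gene, differed in another way. It was not called in mutants, with 4.38, 10.6 and 15.7 at 2 dpf and 0.606, 4.60 and 29.6 at 1 dpf (0.73 ± 0.43), and it fell in wildtype hearts, to 1.66, 4.20 and 16.6 at 2 dpf, against 17.7, 26.5 and 65.0 at 1 dpf (-2.42 ± 0.27, adjusted p = 9e-11). The difference was 3.15 (adjusted p = 0.00013). *hbbe1.1* rose in mutants (3.01 ± 0.48), and its difference of 2.29 missed the threshold (adjusted p = 0.036), which it passed without hearts 2 and 3 (2.94, adjusted p = 5.3e-05). Globin genes of the same family, alpha or beta, are much alike, so the split of UMIs among them is uncertain. *hbae1.2* and *hbae1.3* had the same lowest and highest levels in 2 dpf wildtype hearts (7.92 and 41.5), so their calls may not be separate results. Of the 8 measured globin rows, 6 came near the barcode limit in a mutant heart, which compresses their high values.

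Over the erythroid list, 10 of 18 genes rose in mutant hearts and none fell (4.66% and 0.745% of all genes), with a median of 1.5, while in wildtype hearts 0 rose and 1 fell, with a median of 0.02. The difference was positive for 17 of the 18 and had a median of 1.41, against 0.04 over all genes. The risers were 7 of 8 globin rows and 3 of the 10 other genes. Among these, *slc4a1a*, the anion exchanger of the red cell membrane, had 2.3, 7.15 and 9.47 in 2 dpf mutant hearts and 0, 0 and 10.7 in 1 dpf mutant hearts, with UMIs in 2 of the 8 (2.15 ± 0.39, adjusted p = 0.00034; not called in DESeq2, adjusted p = 0.19). The summed erythroid level was 106, 180.5 and 236 in 2 dpf mutant hearts and 6.06, 27.6 and 215 in 1 dpf mutant hearts, against 44.7, 114 and 263 in 2 dpf and 63.1, 145 and 345 in 1 dpf wildtype hearts.

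**Figure D5:**
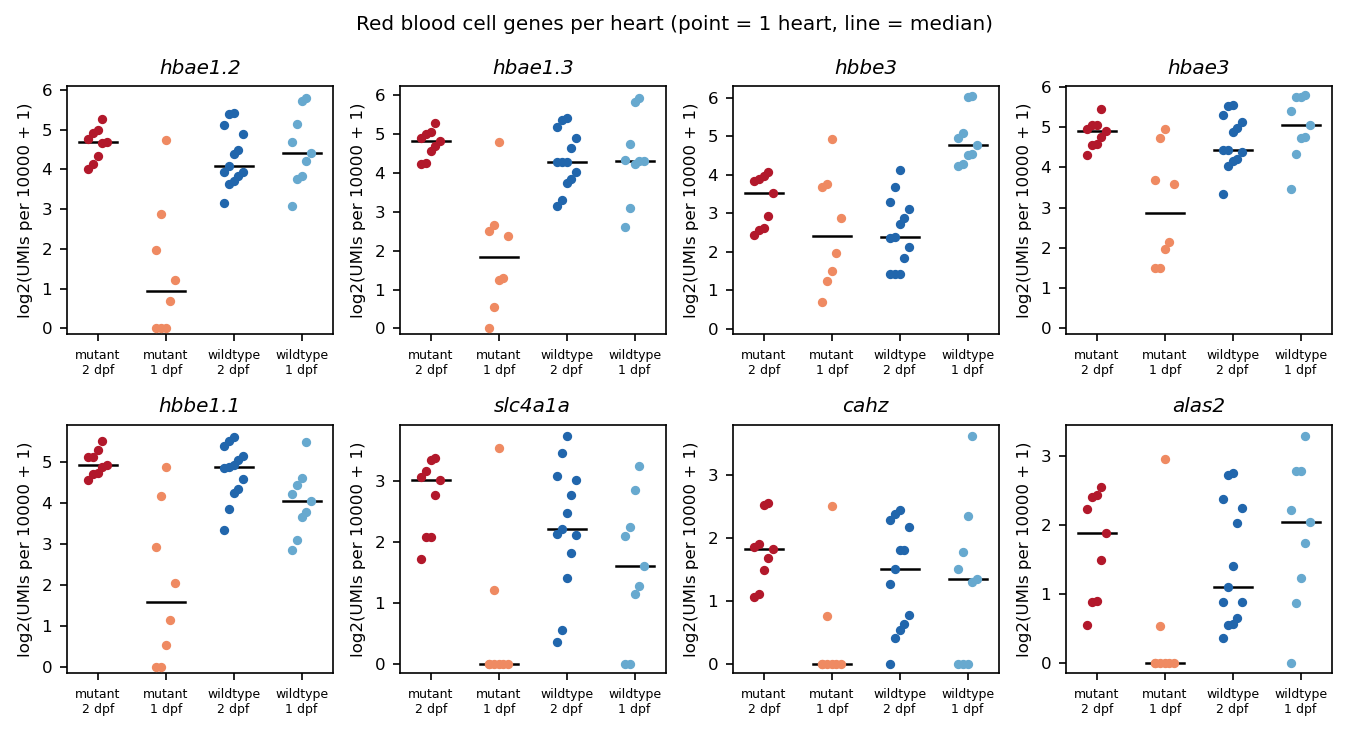
Level of 8 red blood cell genes in each heart as log2(UMIs per 10000 + 1), with 1 point per heart and a line at the group median, for mutant hearts at 2 and 1 dpf and wildtype hearts at 2 and 1 dpf. For *hbae1.2*, *hbae1.3*, *hbae3* and *hbbe1.1* the median of the 1 dpf mutant hearts lies below every heart of the other 3 groups, with 1 dpf mutant heart 2 as the highest of its group.

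Heart 2 accounted for the top of the 1 dpf mutant range: its erythroid sum was 215, and those of the other 7 hearts ran from 6.06 to 76.0. Without heart 2 alone, 8 genes passed the test of the difference, *fabp11a* and 7 globins, and without hearts 2 and 3 together 11 were higher and 3 lower. The call of *hbae3* was the least firm, with an adjusted p between 0.00012 and 0.039 as single mutant hearts were left out. In edgeR the adjusted p was 0.015 for *hbae1.2*, *hbae1.3* and *hbae3* and 0.0004 for *hbbe3*, and in DESeq2 none of these 4 passed, with adjusted p between 0.018 and 0.042. With all hearts thinned to 2370 UMIs no difference was called.

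RNA of neighbouring tissues was present in the dissected hearts. The 5 yolk markers summed to between 14.1 and 71.3 in 2 dpf and between 20.7 and 80.6 in 1 dpf mutant hearts, and the 5 epidermal markers to between 18 and 75.0 and between 26.9 and 166. Of 19 genes of the yolk syncytial layer and liver, *apoea*, an apolipoprotein E gene, rose on 2 UMIs at 1 dpf (ratio of pooled levels 26.3, 95% exact interval 7.19 to 219, counting error only). The yolk syncytial layer gene *afp4*, counted as 2 rows, fell. One *afp4* row (ENSDARG00000041490) had medians of 0.241 at 2 dpf and 8.15 at 1 dpf (-2.52 ± 0.31). Of 24 epidermal genes, the keratin genes *krt91* and *krt17* rose (1.54 ± 0.37 and 1.42 ± 0.35) and *krt4* fell (-1.36 ± 0.30), the last at the barcode limit in 1 heart and not called with collisions corrected (-1.13, adjusted p = 0.092) or in edgeR (-0.68, adjusted p = 0.095). *krt17* was lost without hearts 2 and 3 (1.43, adjusted p = 0.015). *marcksl1a*, of the nervous system list, fell by 1.00 on the log2 scale and was the 1 gene limma called there of 17. It did not pass in edgeR (-0.42, adjusted p = 0.39), which called 5 genes of that list higher and 0 lower, or in hearts of at least 10000 UMIs (adjusted p = 0.017). No leukocyte, hatching gland or neural crest gene was called by limma (4, 1 and 1 had an unadjusted p under 0.05), while edgeR called 2, 1 and 0 and DESeq2 0, 1 and 0, all lower. The calls in these lists stand beside the 5.4% of all genes that limma called in either direction. The summed levels of these lists overlapped between the ages, and the part of these tissues in the results above was not tested.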

How the data were processed

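Single hearts were sequenced with a CEL-seq based protocol. UMIs were counted by the authors with their CEL-Seq software, hearts beyond 2 SD of the mean mRNA amount were dropped, and each age was normalized with Monocle. The deposited values are a signal, each UMI count having been divided by a size factor of its heart. A few heart columns were first labelled a score, because gene names that contain spaces had shifted columns on reading. As deposited, these score values are UMI counts that the authors divided by a size factor of each heart, as in the other hearts. Every value (100%) was a whole multiple of its heart's step within 0.01, so UMIs were recovered, in 39 of 39 hearts. The tables hold 11033 (2 dpf) and 6877 (1 dpf) rows, of which 6573 are shared. These hold 90.3 to 92.4% of the UMIs of 2 dpf mutant hearts and 96.6 to 99.3% of those of 1 dpf mutant hearts. Names came from the files or, for 141 rows with shared or clone names, from the reference gene table.

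Levels were rescaled to 10000 UMIs per heart over shared rows and tested as log2(level + 1) with limma 3.58.1 (R 4.3.3), empirical Bayes moderation with a trend, two-sided, at a Benjamini-Hochberg adjusted p under 0.01. The mutant comparison used mutant hearts alone, and the difference between genotypes all 4 groups. Genes were named by membership in 1 of 31 lists or as the 12 called genes with the largest rise and the 12 with the largest fall, without overlap between ages and with a mean of at least 2 in the higher group. The members and lists were chosen with earlier results of these data known. A few genes outside these rules (*apoa4b.1*, *actb2*) are named because an alternative test called them. The scripts were tested on simulated data. Alternatives were TMM, deposited or low-abundance scaling, correction of UMI counts for barcode collisions (the usual logarithmic formula for the number of possible barcodes), edgeR 4.0.16, DESeq2 1.42.0, pseudocounts of 0.5 and 5, a mean of at least 1, thinning, hearts of at least 10000 UMIs, all groups in 1 fit and each mutant heart left out. Leaving out 1 dpf mutant hearts 2 and 3 together was chosen after seeing the data. DESeq2 gave an adjusted p to 4534 genes for the mutant change and to 457 for the difference between genotypes, edgeR to all 6573. No 2 hearts of a group held identical values. Each heart came from its own embryo. UMI depth, 2370 to 99296 in mutant hearts, limits precision for scarce genes.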

Additional observations from a re-analysis of the deposited data

Results flagged for a closer look

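Among 200 groups of mutant hearts tested for a heart far from the rest, 1 per named gene and age, 25 held one. The cutoff flags about 1 in 20 groups by chance only for normally distributed values. These levels were not transformed and often sparse, and a group where 1 heart alone has UMIs is always flagged. The share flagged by chance here is thus not known. Of these 25, 8 were in 1 dpf mutant heart 2 and 5 in 1 dpf mutant heart 3. All values are UMIs per 10000 of the outlying heart.

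Heart 2 at 1 dpf was high for red blood cell genes, with 25.9 for *hbae1.2*, 26.7 for *hbae1.3*, 29.6 for *hbbe3* and 10.7 for *slc4a1a*. It was the 1 heart of its group with UMIs of *tnnc1b* (0.12) and of *myct1a* (0.602), had 0.963 of *zgc:158463*, and was the lowest for *id1* (14.1). This heart is also the deepest of its group, and the part of depth in these values was not tested.

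Heart 3 at 1 dpf was the highest of its group for *nppb* (2.66), *hmgb2a* (57.1), *sdha* (3.98), *fabp3* (26.6) and *anxa2a* (1.33). In this heart 1 UMI is a level of 1.33, so the lowest of these values rest on few UMIs.

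In other 1 dpf mutant hearts, heart 1 stood out for *hspa5* (6.28) and *marcksl1a* (40.8), and heart 4 for *hapln1b* (31), *cdkn1bb* (2.07) and *stom* (17.2). Heart 6 had 0.606 of both *pkma* and *apoea*, which is 1 UMI in each case. Heart 9, the shallowest, had 29.5 of *ttn.2* and 12.7 of *gnb5b*, where 1 UMI is a level of 4.22. At 2 dpf, heart 33 had 0.604 of *vcanb*, heart 32 had 13.6 of *pgam1a* and heart 29 had 17.9 of *zgc:158463*.

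The change with age differed between the genotypes for 4 globins, by limma's test of the difference: 3.41 for *hbae1.2*, 2.85 for *hbae1.3*, 3.15 for *hbbe3* and 2.20 for *hbae3*, all more positive in mutant than in wildtype hearts.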

How the results depend on the processing

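No paired analysis was possible because each heart was dissected from its own embryo, so none was measured at both ages. The 306 rises became 1051 with TMM, 3941 as deposited, 10 when thinned and 489 without 1 dpf mutant hearts 2 and 3, and ran from 214 to 416 as single hearts were left out. The 49 falls became 7 as deposited, 98 with edgeR, 122 with DESeq2, 5 when thinned, 173 in hearts of at least 10000 UMIs, 84 with all groups in 1 fit and 80 without hearts 2 and 3 (34 to 70 as single hearts were left out). Of the 306 and 49, edgeR called 259 and 29 and DESeq2 193 and 47. The 4 higher differences between genotypes became 2 with DESeq2, 0 when thinned, 9 in hearts of at least 10000 UMIs and 11 without hearts 2 and 3 (3 to 8 leaving out single hearts, 8 without 1 dpf heart 2), and the 0 lower differences became 1 with DESeq2, 1 in hearts of at least 10000 UMIs and 3 without hearts 2 and 3. The deposited factors were set within the table of each age, so that scale is not common to both ages. The cause of the other shifts was not tested, except that thinning leaves fewer UMIs to test.

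As deposited, the log2 change in mutants turned positive for the called fallers *actc1a* (1.03), *actc1c* (1.02), *marcksl1a* (0.84), *myl7* (0.61), *krt4* (0.54), *rpl36* (0.36), *rpl39* (0.071), *id1* (0.057) and *hmgb2a* (0.0076). From changes that were not called, it turned positive for *vmhc* (1.39), *tnnt2a* (1.72), *ldha* (1.51), *nkx2.5* (0.62) and *kdrl* (0.60). The median of all genes was 1.04 higher on that scale. When thinned, *cdkn1bb* was at -0.033. Depth limits scarce genes: 45 of the 355 called had 3 or fewer UMIs over all 1 dpf mutant hearts, so that their fitted change depends on the pseudocount. In mutants the calls of *ttn.2*, *xirp2a*, *actc1a*, *vcanb*, *mt-atp8*, *hsp90ab1*, *hspb1*, *hspa5*, *foxo3b*, *cdkn1bb*, *krt91*, *krt17* and *marcksl1a* were each lost when at least 1 of the 17 mutant hearts was left out, with a highest adjusted p between 0.011 (*hspb1*) and 0.023 (*mt-atp8*, *xirp2a*). Further calls of named genes were lost in DESeq2 for *myh7ba* (adjusted p = 0.024), *xirp2a* (0.035) and *aldh1a2* (0.017), in hearts of at least 10000 UMIs for *actc1a* and *actc1c* (both 0.012), *hsp90ab1* (0.078), *krt4* (0.1) and *krt17* (0.043), and with collisions corrected for *xirp2a* (0.024), *vcanb* (0.012), *mt-atp8* (0.02), *hspa5* (0.016), *foxo3b* (0.011), *cdkn1bb* (0.02), *krt91* (0.014), *krt17* (0.017) and, as a difference between genotypes, *hbae3* (0.033).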
